A study of Homo sapiens with 6 samples.

Results

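In HaCaT cells, a human keratinocyte line that became immortal in culture, 10 genes of WNT signalling were followed after knockout of SDR42E1. They were the ligand genes WNT5A, WNT7A, WNT7B and WNT10A, the receptor gene FZD6, the secreted antagonist genes SFRP1 and DKK1, the receptor turnover ligase genes RNF43 and ZNRF3, and the feedback gene AXIN2. They were chosen by name and role, with earlier results of these data known. All 10 had a row among the 46287 rows of the deposited count table. One group of 3 libraries came from cells labelled homozygous SDR42E1 knockout, edited with CRISPR/Cas9, and the other group of 3 from wild-type HaCaT cells. Both were grown as monolayers in DMEM with 10% fetal bovine serum and harvested at 70% to 80% confluency. The study asked how the transcriptome changes with loss of SDR42E1, a short-chain dehydrogenase/reductase gene linked to vitamin D levels. The labels call the libraries biological replicates and do not say whether they came from separate cultures or from more than 1 edited clone, so p-values measure only the spread between these libraries.

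WNT proteins are secreted, lipid-modified ligands that bind frizzled receptors. In the canonical branch, frizzled and an LRP co-receptor shut down the complex of AXIN, APC and GSK3 that marks beta-catenin for destruction, and beta-catenin then drives target genes with TCF and LEF factors. The cell restrains this signal through secreted antagonists, through the ligases RNF43 and ZNRF3, which remove frizzled from the membrane, and through AXIN2, an induced copy of the AXIN scaffold. In skin, WNT signals are known for hair follicle formation and for the upkeep of basal keratinocytes.

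Library totals were 11504473 to 13454544 counts in knockout cells and 12094896 to 16928201 in control cells. SDR42E1 itself averaged 21.3 ± 1.61 CPM (counts scaled to library size) in knockout cells and 47.7 ± 1.02 CPM in control cells (SD, n = 3 each), so its RNA was lower and still present. All 15 keratinocyte markers were measured, and their summed level was 14900 to 15500 CPM in knockout libraries and 12400 to 13300 CPM in control libraries. Of 12293 genes tested, 50.4% passed an adjusted p threshold of 0.05 in edgeR's quasi-likelihood test, 24.6% higher and 25.8% lower in the knockout, so a call by itself is common here. In bulk RNA, fewer cells with a transcript and less of it per cell cannot be told apart.

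The WNT genes moved in both directions. Of the 9 with enough counts to test, WNT7A, DKK1, RNF43 and ZNRF3 were higher in the knockout, WNT5A, WNT10A, FZD6 and SFRP1 were lower, and WNT7B did not pass. Changes of at least 2-fold were seen for WNT5A, SFRP1 and RNF43, where 7.14% of all tested genes were called with a change of that size. AXIN2 had too few counts to test. The groups of libraries did not overlap for 8 of the 9, beside 56.5% of all tested genes. WNT5A entered the test through its control libraries alone, and such entry favours a lower value in the knockout. The median log2 fold change of the 9 was -0.24, and that of all tested genes was 0.0.

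**Figure D1:**
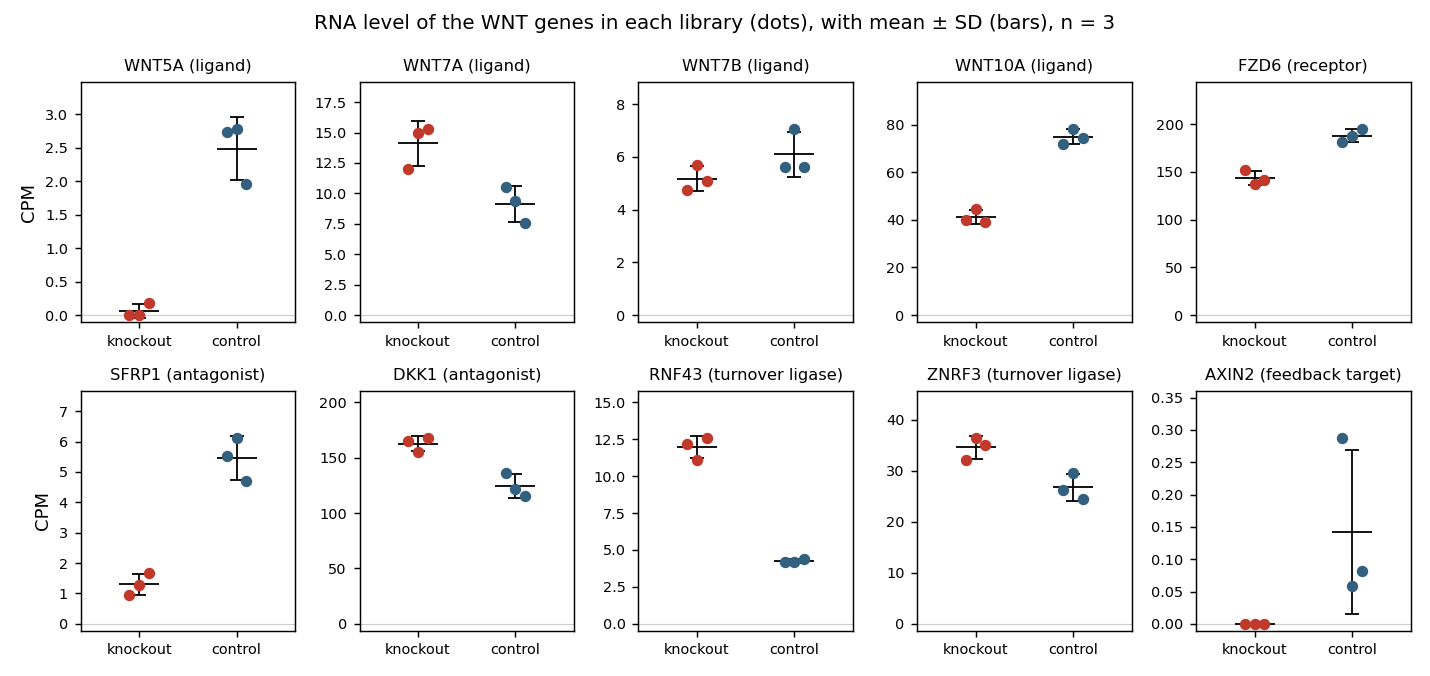
CPM (vertical axis, each panel with its own scale from 0) of the 10 WNT genes in the 3 knockout and the 3 control libraries; dots are libraries and bars are the mean ± SD. Knockout dots lie below control dots for WNT5A, WNT10A, FZD6 and SFRP1 and above them for WNT7A, DKK1, RNF43 and ZNRF3, while those of WNT7B overlap and AXIN2 is at 0 in the knockout.

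Among the ligands, WNT10A carried most of the RNA and was lower in the knockout. WNT10A, mutated in inherited defects of teeth, hair and skin, had 461, 587 and 448 counts in knockout libraries and 1001, 1351 and 916 in control libraries. This was 39.9, 44.6 and 39.2 CPM in knockout cells and 72.0, 78.2 and 74.4 CPM in control cells. All 3 knockout libraries lay far below the lowest control library. Its log2 fold change was -0.86 (SE 0.07, edgeR adjusted p = 5.27e-13), a level 1.82-fold lower in the knockout. The gene lies on the plus strand of chromosome 2, from 218880363 to 218899581 (GRCh38).

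WNT5A, a ligand best known for beta-catenin-independent signalling, was nearly absent from knockout libraries. It had 0, 0 and 2 counts in knockout libraries and 38, 48 and 24 in control libraries. Even in control cells it was a minor transcript, at 2.49 ± 0.467 CPM (SD, n = 3). Summed over libraries and scaled for depth, it was 45.7-fold lower in the knockout, with a 95% counting interval of 12.4 to 382. This interval covers counting error only. The fitted log2 fold change was -5.28 (SE 0.63, edgeR adjusted p = 7.3e-09). Without knockout replicate 3, the library that held both counts, the fitted value was -8.10, which depends on the prior count; against a floor of 3 counts over the group, WNT5A was then at least 20.8-fold lower in the knockout. WNT5A is on chromosome 3, minus strand, from 55465715 to 55490539.

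Fibroblast, endothelial and melanocyte markers, all at a low level, had smaller sums in the knockout. Fibroblasts are known to express WNT5A in skin. The summed level of the 8 fibroblast markers was 1.12 to 2.13 CPM in knockout libraries and 4.30 to 6.19 CPM in control libraries. Most of this gap was the collagen gene COL3A1. It had 0, 0 and 4 counts in knockout libraries and 31, 56 and 20 in control libraries. COL3A1 entered the test through the control libraries alone, which favours a lower value in the knockout. The other tested marker, the collagen gene COL1A1, did not pass (log2 fold change -0.59, edgeR adjusted p = 0.133). The defining markers DCN, PDGFRA and COL6A3 had 0 counts in all 6 libraries, and LUM had 1 count in all. The 6 endothelial markers summed to 1.92 to 2.81 CPM in knockout libraries and 3.65 to 4.28 CPM in control libraries, and the 6 melanocyte markers to 1.57 to 2.89 CPM in knockout libraries and 3.31 to 3.57 CPM in control libraries. The 8 leukocyte markers were higher, at 9.10 to 9.80 CPM in knockout libraries and 5.83 to 8.33 CPM in control libraries. The part of these transcripts in the WNT5A result was not tested.

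The pair WNT7A and WNT7B, close relatives within the ligand family, differed in outcome. WNT7A (chromosome 3, minus strand, 13816258 to 13880121) had 12.0, 15.0 and 15.3 CPM in knockout libraries and 10.5, 9.37 and 7.55 CPM in control libraries. The lowest knockout library was above the highest control library by a small margin. WNT7A rose by 0.62 on the log2 scale (SE 0.14, edgeR adjusted p = 0.000346). WNT7B (chromosome 22, minus strand, 45920362 to 45977129) had 4.76, 5.70 and 5.07 CPM in knockout libraries and 5.61, 7.06 and 5.60 CPM in control libraries. Here the groups overlapped, and the log2 fold change of -0.24 (SE 0.19) did not pass (edgeR adjusted p = 0.299). Its 95% interval from the SE, -0.61 to 0.13, allows a fall of some size as well as no change. The ratio of WNT7A to WNT7B, per kilobase of exon, was 2.79, 2.90 and 3.33 in knockout libraries and 2.06, 1.46 and 1.49 in control libraries. Their annotated transcripts share identical stretches of at most 30 bases.

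Summed over these 4 ligand genes, the level was 56.6, 65.2 and 59.7 CPM in knockout libraries and 90.9, 97.4 and 89.5 CPM in control libraries. The groups did not overlap, and the sum follows WNT10A, its main contributor. Per kilobase of exon, WNT10A made up 52.1 ± 2.01% of the RNA of all 19 human WNT ligand genes in knockout cells and 62.6 ± 0.775% in control cells (SD, n = 3 each). The share of WNT7A was 13.3 ± 1.35% in knockout cells and 5.70 ± 0.971% in control cells. That of WNT7B was 4.42 ± 0.202% in knockout cells and 3.43 ± 0.359% in control cells. WNT9A, which is not among the 10 genes, took second place after WNT10A in both groups, at 15.7 ± 1.65% in knockout cells, where its range overlapped that of WNT7A, and 11.3 ± 0.925% in control cells.

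**Figure D2:**
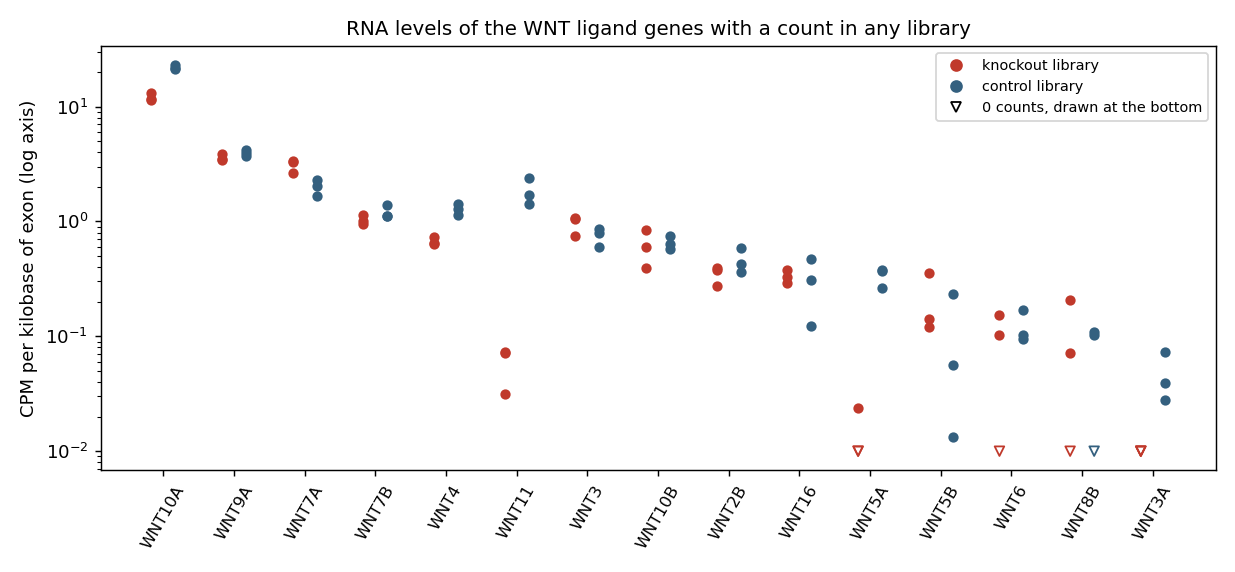
CPM per kilobase of exon (vertical, log axis) of the 15 WNT ligand genes with a count in any library, ordered by mean level; each dot is 1 library, knockout to the left of control, and open triangles at the bottom are libraries with 0 counts. WNT10A is the highest in every library, and the knockout dots of WNT11 and WNT5A lie far below their control dots.

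In the whole ligand family, the test called 1 of 11 genes higher and 4 lower and left 6 uncalled. This was 45.5% called, beside 50.4% of all tested genes. Another 8 of the 19 had too few counts. WNT5A and WNT11 entered the test through the control libraries alone, which favours lower values in the knockout. WNT16 entered through the knockout libraries alone and did not pass. Nearly as scarce in the knockout as WNT5A was WNT11, a ligand of cell movement and polarity, with 2, 1 and 2 counts in knockout libraries and 47, 99 and 50 in control libraries. The fitted log2 fold change of WNT11 was -4.91 (SE 0.45). WNT4 had 2.94, 3.34 and 2.89 CPM in knockout libraries and 5.83, 6.42 and 5.11 CPM in control libraries, a log2 fold change of -0.92 (SE 0.21, edgeR adjusted p = 0.00045). WNT2B (log2 fold change -0.39) and WNT3 (0.35) did not pass. WNT1, WNT2, WNT8A and WNT9B had 0 counts in all 6 libraries. PORCN, the acyltransferase that lipid-modifies WNT proteins, had 50.7, 49.6 and 48.0 CPM in knockout libraries and 20.1, 21.1 and 20.7 CPM in control libraries. It rose by 1.26 on the log2 scale (SE 0.08, edgeR adjusted p = 1.29e-15), above all 51 tested neighbours within 5 Mb on chromosome X. WLS, which carries WNT proteins to the cell surface, had 84.1 ± 4.50 CPM in knockout cells and 83.1 ± 3.47 CPM in control cells (SD, n = 3 each) and did not pass.

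FZD6, a frizzled receptor known for planar polarity and for nail growth, was among the most abundant of the 10 transcripts and was moderately lower in the knockout. It had 152, 137 and 142 CPM in knockout libraries and 181, 188 and 195 CPM in control libraries. No knockout library reached the lowest control library. The log2 fold change was -0.39 (SE 0.05, edgeR adjusted p = 6.64e-08), 1.31-fold lower in the knockout. FZD6 is on chromosome 8, plus strand, from 103298433 to 103332866. The antagonist gene SFRP1 is on the same chromosome, minus strand, from 41261958 to 41309497. The 10 tested frizzled and LRP genes held 4 that fell and 6 that did not pass (40% called, beside 50.4% of all tested genes). FZD4 fell by 0.65, FZD1 by 0.83 and FZD2 by 0.73 on the log2 scale. The 127 genes around FZD2, tested within 5 Mb on chromosome 17, had a median log2 fold change of -0.28, so part of its neighbourhood was lower too; for FZD1 and FZD4 the medians were 0.14 and 0.07. FZD7 had a log2 fold change of -0.22 that did not pass, and the co-receptor genes LRP5 and LRP6 had 0.05 and 0.01, also not past the threshold.

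The secreted antagonists changed in opposite directions. SFRP1, which binds WNT ligands through a frizzled-like domain, had 11, 17 and 19 counts in knockout libraries and 77, 106 and 58 in control libraries. In CPM these were 0.951, 1.29 and 1.66 in knockout cells and 5.54, 6.13 and 4.71 in control cells. Every knockout library was below 2 CPM and every control library above 4 CPM. The log2 fold change was -2.07 (SE 0.27, edgeR adjusted p = 5.32e-08), 4.20-fold lower in the knockout. SFRP1 is also expressed by fibroblasts, whose markers had summed levels of 1.12 to 2.13 CPM in knockout libraries and 4.30 to 6.19 CPM in control libraries. Their part in this result was not tested.

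DKK1, a secreted inhibitor that takes LRP5 and LRP6 out of the receptor complex and is itself a target of beta-catenin, had the highest level per kilobase of the 10 in both groups. It had 165, 155 and 168 CPM in knockout libraries and 136, 122 and 115 CPM in control libraries. The lowest knockout library, at 155 CPM, was above the highest control library, at 136 CPM. The log2 fold change was 0.39 (SE 0.06, edgeR adjusted p = 4.38e-07), 1.31-fold higher in the knockout. Of 12 tested genes within 5 Mb on chromosome 10, 1 had a higher value, and their median was -0.15. The window from 250 bases before to 50 after its start is shown because it held the only TCF and LEF core among the 7 windows found for these genes in the RefSeq promoter table. It lies at chr10:52314031-52314330 on the plus strand (GRCh38.p14), and the capitals mark the match.
DKK1: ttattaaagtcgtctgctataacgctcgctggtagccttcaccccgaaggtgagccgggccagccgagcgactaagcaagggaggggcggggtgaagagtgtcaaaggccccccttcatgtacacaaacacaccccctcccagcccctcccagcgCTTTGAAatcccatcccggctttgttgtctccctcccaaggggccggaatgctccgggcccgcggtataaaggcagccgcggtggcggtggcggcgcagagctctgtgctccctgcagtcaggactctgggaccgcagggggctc
The letters searched were CTTTGAT and CTTTGAA on both strands, which do not overlap here. At least 1 of them was in 6.86% of 35116 windows of this length. A match of these letters is a description and not a shown binding site. The other windows were those of WNT10A and WNT7A and both windows each of WNT5A and RNF43.

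Of the 7 antagonist genes tested, 2 rose, 4 fell and 1 did not pass (85.7% called, beside 50.4% of all tested genes). The other 11 of the list of 18 had too few counts. DKK3, a distant DKK relative, rose by 0.57 on the log2 scale, with 43.9 ± 3.10 CPM in knockout cells and 29.7 ± 2.94 CPM in control cells (SD, n = 3 each). SOST, an antagonist best known from bone, had 11, 21 and 24 counts in knockout libraries and 187, 274 and 223 in control libraries. It fell by 3.34 on the log2 scale (SE 0.20, edgeR adjusted p = 2.86e-16); the 129 tested genes within 5 Mb of it on chromosome 17 had a median of -0.36, and 2 of them were lower than SOST. APCDD1, a membrane inhibitor mutated in a hereditary hair loss, fell by 1.46, with 1.74 ± 0.491 CPM in knockout cells and 4.85 ± 0.610 CPM in control cells. KREMEN1, a partner of DKK1, passed narrowly with overlapping groups, at 50.7, 60.8 and 59.3 CPM in knockout libraries and 59.4, 65.3 and 70.5 CPM in control libraries (log2 fold change -0.19, edgeR adjusted p = 0.0321). It passed under 9 of 13 alternative settings, and not with DESeq2. Within each library DKK1 outweighed SFRP1 per kilobase of exon, by 373-, 260- and 218-fold in knockout libraries and by 52.9-, 42.8- and 52.5-fold in control libraries.

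Both turnover ligases were higher in the knockout, and RNF43 more so. RNF43 had 141, 146 and 144 counts in knockout libraries and 58, 72 and 54 in control libraries. This was 12.2, 11.1 and 12.6 CPM in knockout cells and 4.17, 4.17 and 4.38 CPM in control cells. The replicates of each group were close together and the groups far apart. RNF43 rose by 1.49 on the log2 scale (SE 0.16, edgeR adjusted p = 8.29e-10), 2.82-fold higher in the knockout, in place 98 from the highest of all tested genes. It was higher than all 43 tested neighbours within 5 Mb, whose median was 0.05. RNF43 is on chromosome 17, minus strand, from 58352500 to 58417595. In GENCODE release 29, a readthrough gene on the same strand covers 57.6% of the exon bases of RNF43. SUPT4H1 covers 1.91%, so reads at these overlaps could be shared. The readthrough gene had no row in the count table under its name or gene ID of that release. TSPOAP1-AS1, on the other strand, covers 20.3% and had 0 counts.

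RNF43 has separate annotated starts, and counts per gene cannot tell them apart. Its upstream window, at chr17:58417485-58417784 on the minus strand, held none of the letters searched. The downstream window, at chr17:58402672-58402971 on the minus strand (RefSeq, GRCh38.p14), is shown because it held the only AP-1 motif among the 7 windows, in capitals.
RNF43: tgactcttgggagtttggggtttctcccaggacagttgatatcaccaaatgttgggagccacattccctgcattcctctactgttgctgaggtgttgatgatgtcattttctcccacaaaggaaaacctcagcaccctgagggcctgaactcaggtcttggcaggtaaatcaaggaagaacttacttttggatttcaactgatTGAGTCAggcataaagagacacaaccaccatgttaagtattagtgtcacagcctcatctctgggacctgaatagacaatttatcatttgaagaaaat
The AP-1 motif was searched as TGANTCA, which reads the same on both strands and overlaps no other match here. It was in 7.71% of the 35116 windows.

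ZNRF3, the paralogue of RNF43, had 32.2, 36.5 and 35.1 CPM in knockout libraries and 26.3, 29.6 and 24.4 CPM in control libraries. The groups did not overlap, but the gap was smaller than for RNF43. ZNRF3 rose by 0.36 on the log2 scale (SE 0.09, edgeR adjusted p = 0.000825), 1.29-fold higher in the knockout. The ratio of RNF43 to ZNRF3 per kilobase of exon was 0.352, 0.282 and 0.333 in knockout libraries and 0.147, 0.131 and 0.167 in control libraries. ZNRF3 thus remained the more abundant of the pair in all 6 libraries. It lies on the plus strand of chromosome 22, from 28883592 to 29057487, and its annotated transcripts share identical stretches of at most 18 bases with those of RNF43.

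The LGR receptors, which with R-spondins hold these ligases back, went the other way. LGR4 had 125, 112 and 125 CPM in knockout libraries and 162, 161 and 166 CPM in control libraries, a log2 fold change of -0.43 (SE 0.05, edgeR adjusted p = 1.31e-08). LGR6 had 8, 8 and 6 counts in knockout libraries and 45, 38 and 18 in control libraries (log2 fold change -1.91, SE 0.40, edgeR adjusted p = 0.000129). It entered the test through the control libraries alone, and its 59 tested neighbours on chromosome 1 had a median of -0.30. LGR5 and the R-spondin genes RSPO1, RSPO3 and RSPO4 had 0 counts in all 6 libraries, and RSPO2 had 1. With RNF43 and ZNRF3, this list had 2 genes higher and 2 lower of 4 tested (100% called, beside 50.4% of all tested genes).

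AXIN2, the feedback gene most often used as a readout of beta-catenin activity, was at the edge of detection. It had 0, 0 and 0 counts in knockout libraries and 4, 1 and 1 in control libraries. A sum of 0 allows up to 0.0829 CPM over the knockout group, by a floor of 3 counts, where control libraries had 0.288, 0.0579 and 0.0812 CPM. At this depth no difference could be established. Without a filter on low counts, AXIN2 had an adjusted p of 0.112 in edgeR's quasi-likelihood test. AXIN2 is on chromosome 17, minus strand, from 65528563 to 65561647.

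Several other feedback genes of the beta-catenin pathway were as scarce. LEF1 had at most 1 count in any library, and NKD2, NOTUM, WIF1, DKK4 and LGR5 had 0 to 3. Of the 18 feedback and target genes 9 were tested. Of these, 6 rose, 2 fell and 1 did not pass (88.9% called, beside 50.4% of all tested genes). RNF43, ZNRF3, DKK1 and APCDD1 are among the 9. The others that rose were abundant genes with many regulators besides WNT. CD44, an adhesion receptor, had 852, 891 and 987 CPM in knockout libraries and 458, 477 and 487 CPM in control libraries (log2 fold change 0.94, SE 0.05). MYC, a growth factor-responsive transcription factor, had 217 ± 14.8 CPM in knockout cells and 117 ± 11.3 CPM in control cells (log2 fold change 0.89, SE 0.06). CCND1, the cyclin of G1 phase, had 830 ± 14.2 CPM in knockout cells and 577 ± 37.9 CPM in control cells (SD, n = 3 each; log2 fold change 0.52, SE 0.05). SP5, a transcription factor gene induced by beta-catenin, was lower, with 4, 8 and 8 counts in knockout libraries and 17, 16 and 19 in control libraries (log2 fold change -1.12, SE 0.46, edgeR adjusted p = 0.0393). It entered the test through the control libraries alone. SP5 passed under 5 of 13 alternative settings and had too few counts under the filter of 1 CPM, so this list had 7 calls in place of 8 under most of them.

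**Figure D3:**
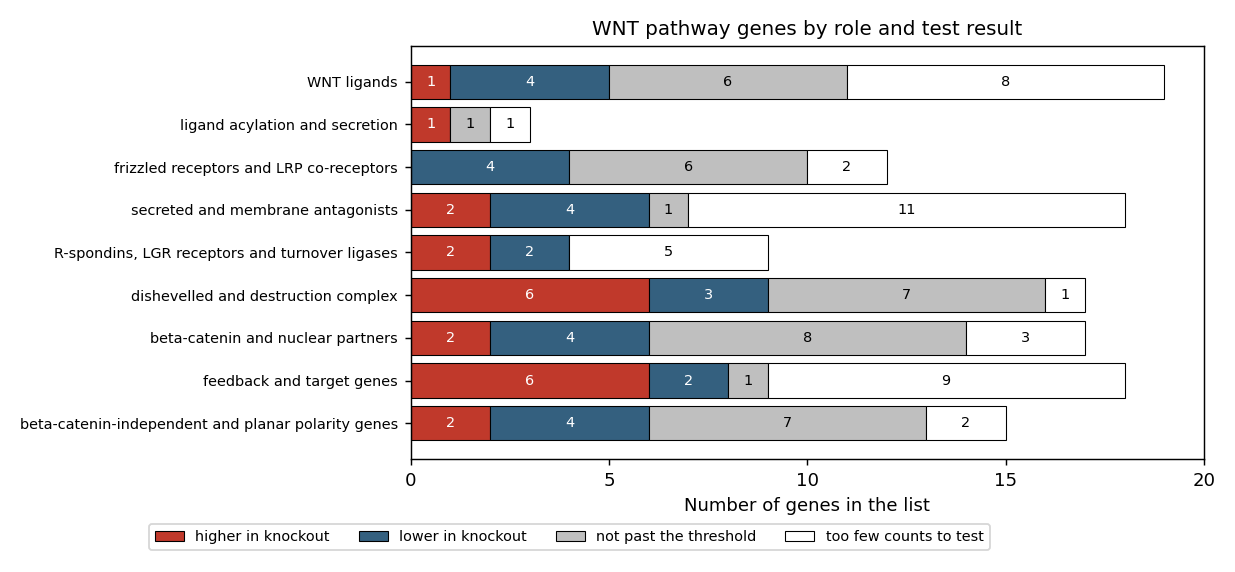
Number of genes (horizontal axis) in each of 9 lists of WNT pathway genes, divided into those higher in the knockout, lower in the knockout, not past the adjusted p threshold of 0.05, and with too few counts to test; some genes stand in more than 1 list. The frizzled and LRP list holds 4 lower genes, and the feedback list 6 higher and 2 lower.

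Inside the cell, most changes were small, and they went both ways. Of 16 tested dishevelled and destruction complex genes, 6 rose, 3 fell and 7 did not pass (56.2% called, beside 50.4% of all tested genes). The list had a median log2 fold change of 0.04. CSNK1A1, the kinase that primes beta-catenin for destruction, rose by 0.35 and CSNK1E by 0.42, while of the dishevelled genes DVL1 rose by 0.40 and DVL2 fell by 0.57. DVL2 lies among 106 tested genes of chromosome 17 with a median of -0.25. CTNNB1, which encodes beta-catenin, had 528 ± 16.4 CPM in knockout cells and 465 ± 16.0 CPM in control cells (SD, n = 3 each), a log2 fold change of 0.18 (SE 0.05, edgeR adjusted p = 0.00107). Among beta-catenin and its nuclear partners 2 rose, 4 fell and 8 did not pass of 14 (42.9% called, beside 50.4% of all tested genes). PYGO2, a coactivator, fell by 0.38, where 128 neighbours on chromosome 1 had a median of -0.27. The corepressor gene TLE4 fell by 0.46. TBL1X, a corepressor exchange factor, had 19, 33 and 22 counts in knockout libraries and 48, 75 and 42 in control libraries, a log2 fold change of -0.88 (SE 0.27, edgeR adjusted p = 0.00631). Without control replicate 2 it did not pass, with a largest adjusted p of 0.0545 over the alternatives.

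The 13 tested genes of beta-catenin-independent and planar polarity signalling held 2 that rose, 4 that fell and 7 that did not pass. In this list 46.2% were called, beside 50.4% of all tested genes. ROR1, a receptor for WNT5A, had 27.7, 23.0 and 27.1 CPM in knockout libraries and 15.9, 16.0 and 13.9 CPM in control libraries. It rose by 0.76 on the log2 scale (SE 0.10, edgeR adjusted p = 1.45e-07), whereas WNT5A fell. The related receptor gene ROR2 had 0, 0 and 4 counts in knockout libraries and 11, 10 and 8 in control libraries. These were too few to test. PTK7, a co-receptor of polarity signalling, fell by 0.59, the cadherin gene CELSR2 by 0.45 and PRICKLE1 by 0.57. Over all 9 lists, without the 10 genes chosen by name, 15 rose, 22 fell and 35 did not pass of 72 tested. That is 51.4% called, beside 50.4% of all tested genes.

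Each of the 9 was set beside the genes around it, since genes near SDR42E1 were lower as a block. Medians of tested genes within 5 Mb (mean log2 CPM 2 or more) ran from -0.15 around DKK1 to 0.14 around FZD6. The 29 genes around SDR42E1 had a median of -0.68 and 100% were below 0. WNT7A was higher than all 52 of its neighbours, but narrowly. Its value was 0.62 (SE 0.14) and the highest neighbour had 0.58. WNT10A had 1 lower neighbour of 44 and FZD6 1 of 22. WNT5A and SFRP1 lay below the level set for neighbours and were not placed among them. ZNRF3 had 8 higher neighbours of 58.

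Ordered by CPM per kilobase of exon in knockout cells, the 10 genes ran DKK1 (73.8 ± 2.97), FZD6 (35.3 ± 1.87), WNT10A (12.1 ± 0.861), ZNRF3 (4.96 ± 0.319), WNT7A (3.08 ± 0.394), RNF43 (1.59 ± 0.104), WNT7B (1.02 ± 0.0947), SFRP1 (0.273 ± 0.0746), WNT5A and AXIN2. In this group, WNT5A and AXIN2 alone overlapped as neighbours in the order. In control cells the first 5 places were the same, with 56.2 ± 4.91 for DKK1, 46.2 ± 1.73 for FZD6 and 21.9 ± 0.908 for WNT10A (SD, n = 3 each). They were followed by WNT7B (1.21 ± 0.166) and SFRP1 (1.15 ± 0.150), which overlapped, and then by RNF43 (0.565 ± 0.0165), WNT5A (0.336 ± 0.0631) and AXIN2. RNF43 thus stood in place 6 in knockout cells and place 8 in control cells, and SFRP1 in place 8 in knockout cells and place 7 in control cells. These levels use the union of all annotated exons, so a gene that uses a short form is set too low.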

How the data were processed

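The authors deposited raw counts of reads per gene in a single table, whose 6 columns each matched 1 sample by name. Libraries were stranded total RNA, per the labels' protocols. The reads were placed on GRCh38, per the submitters' processing notes. Aligner, counter and strand setting were not given in the sources used here.

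Testing used edgeR 4.0.16 (R 4.3.3): filterByExpr (minimum count 10, minimum total count 15), TMM scaling and the robust quasi-likelihood F test of knockout against control, two-sided, with Benjamini-Hochberg adjustment over 12293 genes and a threshold of 0.05. The SE was derived from the fitted change and its F statistic. CPM is scaled to the TMM-adjusted library size. Exon lengths, positions and overlaps came from GENCODE release 29. The fit was tested on simulated data. It recovered 40% of genes changed 1.25-fold and 94% of those changed 2-fold (50 genes each of 12166). A far smaller part of the genes was changed there than was called in these data. These rates therefore do not measure recovery here.

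Chi-square per degree of freedom between libraries of 1 group was 2.65 to 4.49, above sampling noise, and each was kept as a replicate. This check cannot tell separate cultures from separate preparations of 1 culture. The counting interval of WNT5A and the floors cover counting error only. The interval of WNT7B came from the SE and includes the spread between libraries. Replicate numbers were not taken as pairs: deviations of same-numbered libraries had correlations of 0.05, -0.04 and 0.06.

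The 10 genes and the pathway lists were chosen with earlier results of these data known. Named pathway genes were, from each list, up to 4 with the smallest adjusted p, plus those needed to account for small counts. WNT9A, WNT16, SP5, ROR2, COL1A1, COL3A1, LRP5, LRP6 and the genes at or near 0 counts were named after their values were seen. With 3 libraries against 3, an exact permutation test cannot go below 0.1, so sums and ratios are given without one. Motifs were counted in RefSeq windows of 250 bases before to 50 after a start.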

Additional observations from a re-analysis of the deposited data

How the results depend on the processing

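Results were recomputed with other tests (DESeq2, limma-voom), other scalings (RLE, upper-quartile), other filters (none, or 1 CPM in 3 libraries), a replicate block and each library left out. Under all 13, 4 of the 10 genes were called higher and 4 lower. Of all tested genes, 6197 of 12293 were called as reported. With DESeq2 this was 5492 of 12293, and with no filter on low counts 6403 of 16383. The number of genes tested varied with the filter and with a library left out. WNT7B stayed short of the threshold (log2 fold change -0.31 to -0.11). None of the 9 tested genes among the 10 changed sign. Some uncalled genes of the pathway lists did, such as WNT16 (-0.23 to 0.65). Log2 fold changes ran from -8.10 to -4.70 for WNT5A, -2.27 to -1.89 for SFRP1, -0.92 to -0.82 for WNT10A, -0.43 to -0.35 for FZD6, 0.30 to 0.45 for ZNRF3, 0.34 to 0.46 for DKK1, 0.51 to 0.72 for WNT7A and 1.46 to 1.55 for RNF43. With the replicate block, which the check of the numbers did not call for, 6425 genes passed against 6197, and the value of WNT5A was -5.27. Calls per list ran from 5 to 8 for the antagonists (6 as reported), 7 to 10 for the destruction complex (9), 4 to 7 for the nuclear partners (6), 7 to 8 for the feedback genes (8), 5 to 8 for the polarity genes (6) and 4 to 5 for the frizzled and LRP genes (4). Upper-quartile scaling put 43.4% of all calls on the higher side against 48.8% and moved the median of all genes by -0.03. Depth limits AXIN2 and WNT5A in the knockout, whose levels lie at or near the floor of 3 counts.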
